A study of Drosophila melanogaster with 8 samples.

Results

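The Bomanins are a family of short secreted immune peptides of Drosophila, and the 8 genes described here are BomS1, BomS2, BomS3, BomS5, BomS6, BomBc1, BomBc2 and BomBc3. They were chosen by name, from a list drawn up with earlier results of these data known, and kept because each had a row in the table of gene counts. Their levels and differences are therefore given as a description of the family. These 8 genes are among 10669 genes in the table, and 7 of them were among the 8159 genes with enough counts to be tested. The 4 other Bomanins in the table, BomS4, BomT1, BomT2 and BomT3, serve as a comparison.

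Bomanin genes are switched on by the Toll pathway, in which a circulating protease cascade activates the ligand Spätzle, the Toll receptor, and the NF-kB factors Dorsal and Dif. The peptides are made mainly by the fat body, the fly's counterpart of liver and adipose tissue, are released into the haemolymph, and are needed for resistance to fungi and to many Gram-positive bacteria. Short Bomanins (BomS) consist of little more than a single Bomanin motif after the signal peptide, tailed Bomanins (BomT) carry an extension, and bicipital Bomanins (BomBc) carry a pair of motifs joined by a linker.

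The study compared RNA of synaptosomes, pinched-off nerve terminals purified from homogenised fly heads, with RNA of the head homogenate that went into the purification. Both groups came from wild-type adult heads pooled from many flies, with no infection or other treatment named. The synaptosome group was the pooled synaptic layers of a Percoll density gradient, and the input group was the unfractionated homogenate. Each group had 4 libraries, named here 1, 2, 3 and old, and the labels do not say whether they came from separate collections of heads. The p-values below therefore measure the spread between these libraries, which may be technical.

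Each library was made with a reverse-oriented 3′-end kit, which gives reads at the end of the transcript, so that counts do not grow with the length of the transcript and levels of different genes can be set side by side. Totals ranged from 1029666 to 9397652 counts in the synaptosome libraries and from 7940909 to 16865581 in the input libraries. Levels are given as CPM, the count relative to the library total after edgeR's adjustment by the trimmed mean of M-values (TMM). Across all tested genes the median log2 fold change, synaptosome minus input, was -0.35, and the fold changes below are read against it. With edgeR's quasi-likelihood test at a Benjamini-Hochberg adjusted p of 0.05, calls of a higher level in synaptosomes were made for 0.944% of the genes tested and calls of a lower level for 4.13%. A head homogenate contains fat body, blood cells and many other tissues, and in such bulk samples fewer cells of a type and less RNA per cell cannot be told apart.

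Of the 7 tested Bomanins, BomS5 was called higher in synaptosomes and 0 were called lower, against the 0.944% and 4.13% of all tested genes. BomS6, BomBc1 and BomS3 had higher means in synaptosomes without passing the adjusted threshold, BomS1 had similar means, and BomS2 and BomBc2 had lower means. An unadjusted p under 0.05 with a higher level in synaptosomes was found for 4 of the 7, against 4.44% of all tested genes. With DESeq2 in place of edgeR, BomS5, BomS6 and BomBc1 were called higher, which makes 3 genes, against 2.81% of the genes tested that way. The median log2 fold change of the 7 genes was 0.93, and 5 of the 7 had positive values. Over these same 7 genes the median lay between 0.61 (without synaptosome library 1) and 1.43 (without the 2 shallowest synaptosome libraries) across the settings tried. BomBc3 entered the fit in 9 of the settings and pulled the median down, to 0.30 at the lowest, without synaptosome library old.

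**Figure D1:**
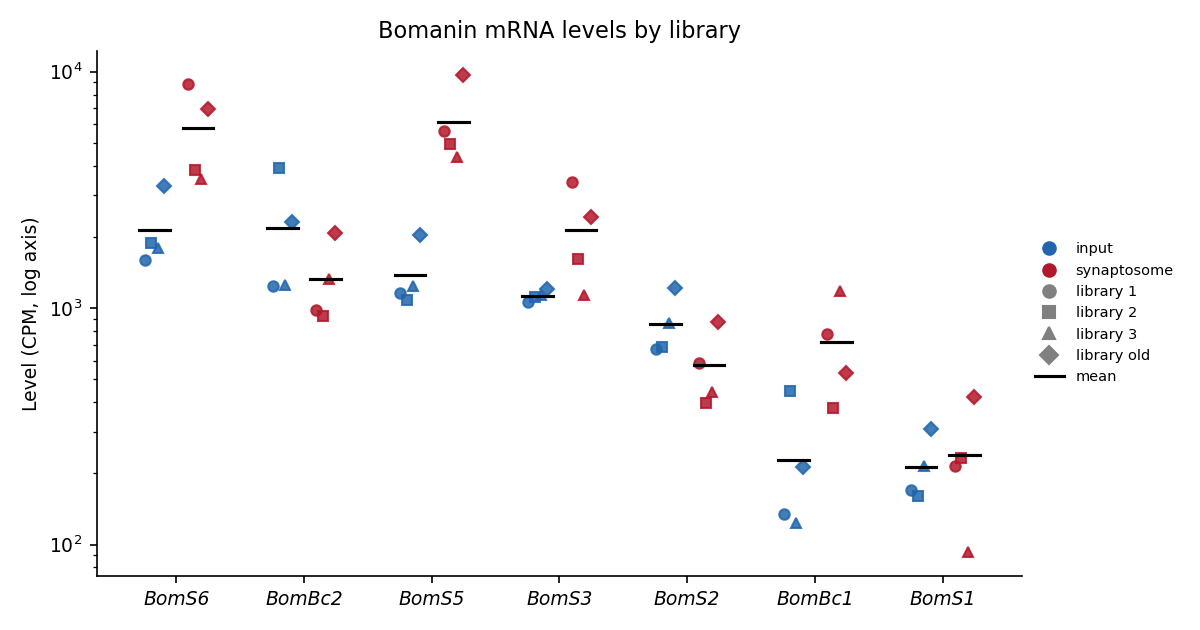
Level (CPM, log axis) of the 7 tested Bomanin genes in each of the 4 input libraries (blue) and 4 synaptosome libraries (red), with symbols for library names and a black bar for the group mean. BomS5 and BomS6 are the genes whose groups do not overlap, and BomBc3, at 0 counts in 4 of 8 libraries, is not drawn.

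The 7 tested Bomanins lie in an array of 10 Bomanins that also holds the other 3 genes BomS4, BomT1 and BomT2. The array spans 9.24 kb, at 18381393 to 18390629 on chromosome arm 2R (dm6, release 6 of the genome). BomBc3 lies apart, on 3R, next to BomT3. The genes of the array are described in the order of the short peptides and then the bicipital ones.

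BomS5 (FBgn0040734; 2R, 18389959 to 18390242, plus strand) encodes a short Bomanin precursor of 40 residues. Its levels in synaptosome libraries 1, 2, 3 and old were 5596, 4926, 4350 and 9718 CPM, and in the input libraries 1162, 1077, 1242 and 2031 CPM. Every synaptosome library was above every input library, a separation found for 2.99% of all tested genes, and the old library was the highest of each group. The means were 6147 ± 2434 CPM (SD, n = 4) in synaptosomes and 1378 ± 440.5 CPM (SD, n = 4) in input, a 4.46-fold ratio. The log2 fold change was 2.16 ± 0.39 (SE), with an adjusted p of 0.0311 (edgeR). By mean CPM, BomS5 ranked 139 among all genes in input and 16 in synaptosomes, which placed it among the most abundant transcripts of the fraction. The call was narrow: leaving out 1 library at a time gave log2 fold changes between 1.84 and 2.40, and the adjusted p passed 0.05 only without synaptosome library old (0.0252), lying between 0.0509 and 0.127 without any of the other 7. Both old libraries shared deviations from their group means (r = 0.25 across genes, against -0.114 to -0.0379 for an old library with a numbered one), so the values were also read with old as a batch. With a batch term BomS5 had a log2 fold change of 2.14 and an adjusted p of 0.00916 (edgeR), and within the numbered libraries alone 2.09 and 0.0157. The old batch held 1 library of each group and gives no test of its own.

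BomS6 (FBgn0040733; 2R, 18390353 to 18390629, minus strand) encodes another short precursor of 40 residues. Synaptosome libraries 1, 2, 3 and old had 8842, 3848, 3530 and 6952 CPM, and input libraries 1597, 1891, 1792 and 3278 CPM. The groups did not overlap, although the lowest synaptosome library and the highest input library lay close together. The means were 5793 ± 2552 CPM and 2140 ± 768.9 CPM (SD, n = 4 each), a 2.71-fold ratio, and the log2 fold change of 1.44 ± 0.41 (SE) had an adjusted p of 0.0734 (edgeR). DESeq2 gave an adjusted p of 0.00937. With the batch term for old the adjusted p was 0.0548, and within the numbered libraries 0.0504 (edgeR). By mean CPM, BomS6 ranked 77 in input, just behind BomBc2 at 74, and 18 in synaptosomes.

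BomS5 and BomS6 close the array and face each other, their gene bodies 110 bases apart. The regions in which their 3′ ends are annotated overlap by 18 bases on opposite strands. The kit keeps the strand, but the strand setting used in counting was not given in the sources used here, so reads of 1 gene could in part have been assigned to the other, and this was not tested. In each library all counts of both genes came from a single end.

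BomS3 (FBgn0040736; 2R, 18387895 to 18388734, plus strand) encodes a precursor of 39 residues whose peptide was among the first immune-induced molecules seen in fly haemolymph, as IM3. Synaptosome libraries 1, 2, 3 and old had 3400, 1611, 1133 and 2433 CPM, and input libraries 1057, 1117, 1133 and 1205 CPM. The input libraries were nearly alike, whereas the synaptosome libraries spread widely, and 3 of the 4 were above all inputs while library 3 lay within the input range. The log2 fold change was 0.93 ± 0.38 (SE), with an adjusted p of 0.277 (edgeR).

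BomS1 (FBgn0034329; 2R, 18383949 to 18384378, plus strand) encodes a precursor of 45 residues, known also as IM1. It had 214.1, 232.2, 93.17 and 421.1 CPM in synaptosome libraries 1, 2, 3 and old, and 169.9, 160.2, 215.0 and 306.6 CPM in the input libraries. The groups overlapped, with synaptosome library 3 the lowest of all 8 and synaptosome old the highest. The log2 fold change was 0.18 ± 0.47 (SE), with an adjusted p of 0.938 (edgeR), and within the numbered libraries it was -0.016.

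BomS2 (FBgn0025583; 2R, 18386602 to 18387030, plus strand), also of 45 residues and known as IM2, had 583.3, 395.2, 441.8 and 876.0 CPM in synaptosome libraries 1, 2, 3 and old and 669.4, 686.9, 865.5 and 1215 CPM in input. Here 3 of the 4 synaptosome libraries were below all inputs, and the old library lay within the input range. The log2 fold change was -0.58 ± 0.38 (SE), with an adjusted p of 0.596 (edgeR).

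BomBc1 (FBgn0034328; 2R, 18382704 to 18383235, minus strand) encodes a bicipital precursor of 117 residues, known also as IM23. It had 779.2, 379.5, 1184 and 534.0 CPM in synaptosome libraries 1, 2, 3 and old, and 134.7, 444.6, 123.6 and 212.7 CPM in input. Synaptosome libraries 1, 3 and old were above all inputs, and the groups overlapped because library 2 was the lowest in synaptosomes and the highest in input. The means were 719.1 ± 350.7 CPM and 228.9 ± 149.2 CPM (SD, n = 4 each), a 3.14-fold ratio. The log2 fold change was 1.65 ± 0.52 (SE), with an adjusted p of 0.104 with edgeR and 0.0291 with DESeq2.

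BomBc2 (FBgn0034331; 2R, 18384824 to 18385589, minus strand) encodes a bicipital precursor of 154 residues. Synaptosome libraries 1, 2, 3 and old had 983.3, 924.6, 1332 and 2077 CPM, and input libraries 1235, 3915, 1256 and 2313 CPM. Input library 2 was the highest of all 8, and the groups overlapped. The log2 fold change was -0.71 ± 0.46 (SE), with an adjusted p of 0.579 (edgeR). BomBc2 overlaps BomS4 by 88 bases on the opposite strand, so with the strand setting not given, reads of BomS4 and BomBc2 could also have been exchanged in part, and the values of both genes and their ends carry that doubt, which was not tested.

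BomBc3 (FBgn0040582; 3R, 22087075 to 22088501, plus strand), a bicipital gene of 98 residues outside the array, was close to absent. It had 11 counts in synaptosome library 1 and 0 in the other 3 synaptosome libraries, and 0, 36, 123 and 5 counts in input libraries 1, 2, 3 and old. These were too few counts for the filter, and no fold change was fitted. In a library at 0, 3 counts would have been 0.337 to 2.63 CPM.

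**Figure D2:**
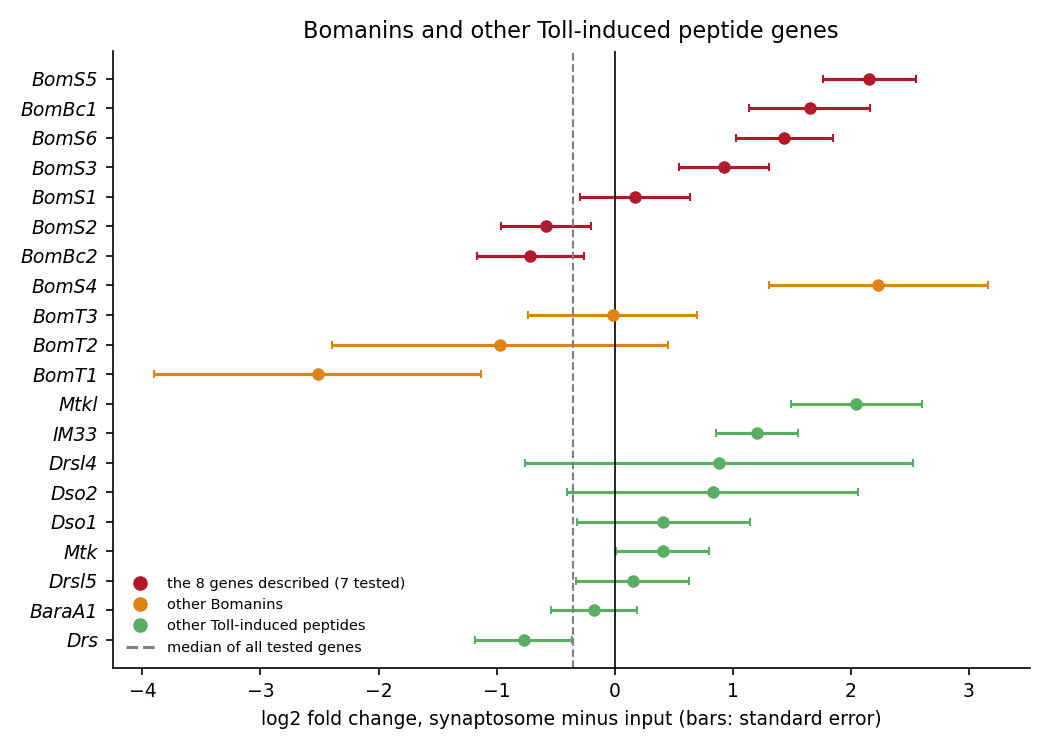
Log2 fold change, synaptosome minus input, with its standard error, for the 7 tested Bomanins (red), the 4 other Bomanins (orange) and 9 other peptide genes listed as Toll-induced (green), beside the median of all tested genes at -0.35 (dashed). BomS5, at 2.16, is the gene of these that passed the adjusted threshold.

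Summed, the 8 genes took a larger part of the synaptosome libraries, though not each of them did. Mean shares of all counts in synaptosomes and input were 0.596 and 0.137% for BomS5 and 0.555 and 0.21% for BomS6. They were 0.206 and 0.114% for BomS3, 0.071 and 0.0227% for BomBc1, and 0.0232 and 0.0211% for BomS1. BomS2 (0.0554 and 0.0855%), BomBc2 (0.129 and 0.215%) and the scarce BomBc3 went the other way. The 8 genes together gave 1.84, 1.36, 1.25 and 2.09% of all counts in synaptosome libraries 1, 2, 3 and old, and 0.675, 0.924, 0.759 and 0.866% in the input libraries. No synaptosome library overlapped the inputs, and the means were 1.64 ± 0.397% in synaptosomes and 0.806 ± 0.111% in input (SD, n = 4 each), a 2.03-fold ratio. Wilson 95% intervals for these shares reached at most 0.0224 percentage points to either side, which covers counting error only. With the other 4 Bomanins added, the shares were 1.87, 1.89, 1.79 and 2.99% in synaptosomes and 1.01, 1.43, 0.95 and 1.10% in input.

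The genes did not contribute equally. BomS5 and BomS6 together made up 69.9 ± 3.16% (SD, n = 4) of the counts of the 8 genes in synaptosomes, with a range of 65.3 to 72.4%, and 43.4 ± 7.96% in input, with a range of 31.9 to 50.3%. BomS2 and BomBc2 together made up 11.5 ± 3.01% in synaptosomes and 36.6 ± 8.63% in input. The order of the genes by mean thus differed between the groups: in input BomS6 and BomBc2 came first, at 26.2 and 25.9% of the family's counts, while in synaptosomes BomS5 and BomS6 came first, at 36.4 and 33.5%. The BomBc2 mean in input was raised by input library 2, at 42.1%. In input libraries 1, 3 and old BomBc2 held 20.5, 18.9 and 21.9%, near BomS5 at 19.3, 18.7 and 19.2%. BomS5 and BomS6 did not differ beyond their spread in synaptosomes, nor did BomS6 and BomBc2 in input. In synaptosomes BomS3 followed with 12.4%, then BomBc2 with 8.10%, BomBc1 with 4.76%, BomS2 with 3.38% and BomS1 with 1.38%.

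**Figure D3:**
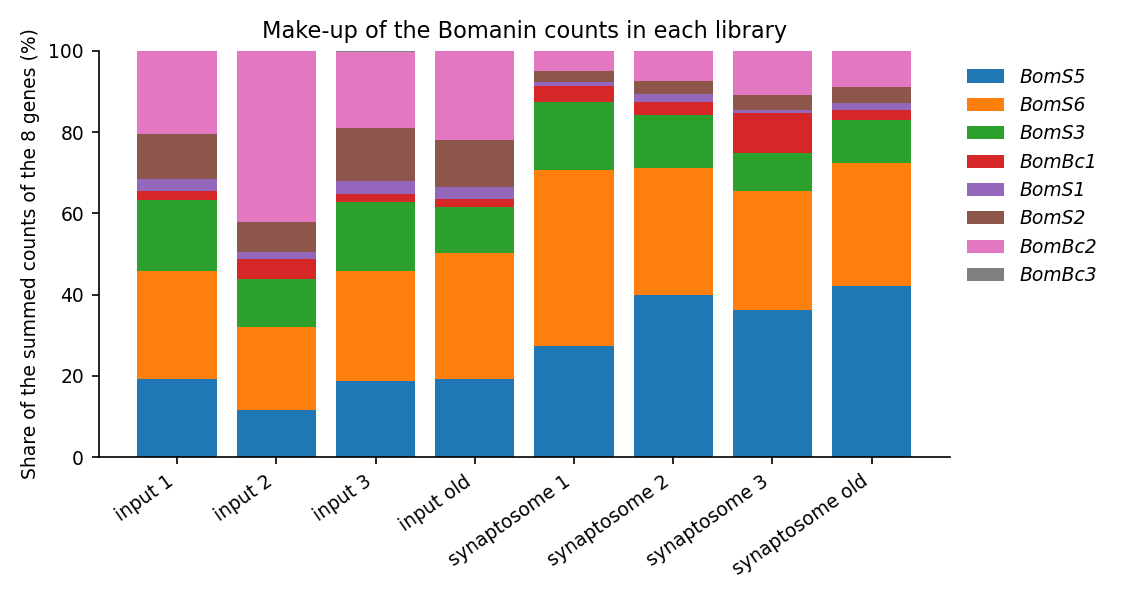
Share (%) of the summed counts of the 8 Bomanin genes taken by each gene, 1 stacked bar per library. BomS5 and BomS6 fill 65.3 to 72.4% of the bars of the 4 synaptosome libraries and 31.9 to 50.3% of those of the 4 input libraries.

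A ratio of 2 genes within a library does not depend on how libraries are scaled, so each gene was also set against BomS6, the gene with the most counts summed over the input libraries. The log2 ratio of BomS2 to BomS6 was -3.92, -3.28, -3.00 and -2.99 in synaptosome libraries 1, 2, 3 and old, and -1.25, -1.46, -1.05 and -1.43 in the input libraries. These 2 genes lie on the same array, and every synaptosome ratio was below every input ratio. The difference was -2.0, with an exact two-sided permutation p of 0.0286, the smallest that 4 against 4 libraries allow, and an adjusted p of 0.0571 over the 6 ratios computed. BomBc2 to BomS6 differed by -2.01 and BomS1 to BomS6 by -1.36, in both cases without overlap and with the same p and adjusted p. For BomS3 the difference was -0.58 (exact permutation p 0.0857, adjusted 0.103), for BomS5 it was 0.74 (0.0857 and 0.103) and for BomBc1 0.33 (0.486 and 0.486). None of the 6 ratios passed an adjusted p of 0.05, while 3 had the smallest unadjusted p that the design can give. All 6 share BomS6 as denominator, so its own log2 fold change of 1.44, against the all-gene median of -0.35, enters each of them. Relative to that median BomS6 lay at 1.79, and BomS1, BomS2 and BomBc2 at 0.53, -0.23 and -0.36. A gene at the median would thus also have a lower ratio to BomS6, and the separations are in large part those of BomS6. The share of all genes whose ratio to BomS6 separates the groups was not computed. The genes were chosen with earlier results known, so these p-values are descriptive. The BomS5 ratio was set apart by synaptosome library 1, at -0.66 against 0.30 to 0.48 in the other 3, and without that library 4 ratios (BomS1, BomS2, BomS5 and BomBc2) had an adjusted p of 0.0429.

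**Figure D4:**
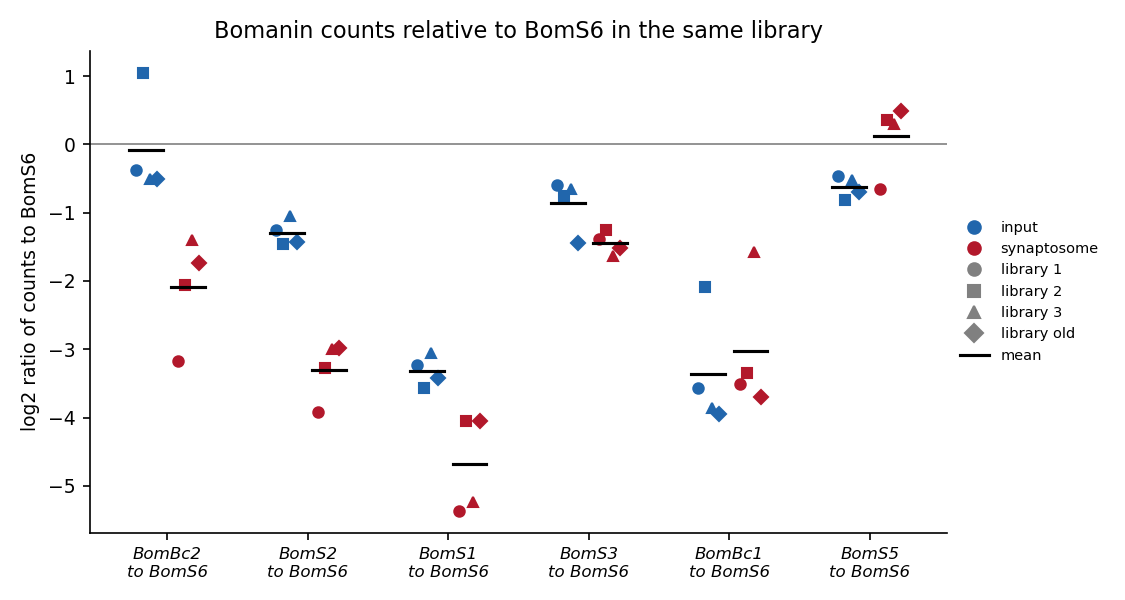
Log2 ratio of the counts of each of 6 Bomanin genes to those of BomS6 in the same library, for input (blue) and synaptosome (red), with black bars for group means. For BomBc2, BomS2 and BomS1 every synaptosome library lies below every input library.

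The genes also moved together to different degrees from library to library. Over the 8 libraries with group means removed, the log2 CPM of BomS2 and BomS5 had a Pearson r of 0.95, that of BomS1 and BomS5 0.87, and that of BomS3 and BomS6 0.85. All 10 pairs of the 5 short genes had r between 0.48 and 0.95, so within groups they varied largely in parallel. BomBc1 had r between -0.51 and 0.08 with the 5 short genes, and 0.67 with BomBc2. These values are descriptive, since the genes share libraries and depth. For BomS1, BomS2 and BomS5 the old library was also the highest of both groups. The part of the old batch in their r values was not tested.

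The counts were also deposited per 3′ end. The 8 genes had 15 ends in the table, of which 11 were tested. The BomS5 end was called higher (log2 fold change 2.02 ± 0.39, adjusted p = 0.039, edgeR) and 0 ends were called lower, against 0.732% and 6.46% of all tested ends. A single end was counted for 5 of the 8 genes, so that for them the gene and the end are the same measurement. BomS3 and BomBc1 had further ends with small shares: the main end held 97.7 to 99.2% of BomS3 counts and 98.5 to 100% of BomBc1 counts. BomBc2 was the gene whose end use varied. Its minor end held 0.498, 24.9, 4.98 and 12.1% of the gene's counts in synaptosome libraries 1, 2, 3 and old and 5.54, 2.71, 3.35 and 3.93% in input. The groups overlapped, and the share of 24.9% rested on 263 of 1055 counts (Wilson 95% interval 22.4 to 27.6%).

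The other Bomanins did not follow one pattern. BomS4, a short Bomanin between BomS1 and BomBc2, had 156.7, 1209, 887.9 and 7621 CPM in synaptosome libraries 1, 2, 3 and old and 377.2, 324.3, 288.4 and 1109 CPM in input. Its synaptosome mean was set by the old library, the groups overlapped, and the log2 fold change of 2.23 ± 0.93 (SE) had an adjusted p of 0.278 (edgeR). BomT3, the abundant tailed Bomanin on 3R, had means of 2597 ± 1818 and 2629 ± 1506 CPM (SD, n = 4 each) and a log2 fold change of -0.02 ± 0.72. BomT1 and BomT2 were scarce, with log2 fold changes of -2.52 ± 1.38 and -0.97 ± 1.42. With edgeR, 0 of these 4 were called, and DESeq2 also called 0; BomS4 had an unadjusted p under 0.05.

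A further list held 15 other short peptide genes taken here as Toll-induced, among them the Drosomycin-like genes Drsl1 to Drsl6. Induction by Toll was not checked gene by gene. Of the 15, 11 were in the table and 9 were tested. With edgeR 0 were called, 2 had an unadjusted p under 0.05, both higher in synaptosomes, and DESeq2 called those 2 higher. They were IM33 (log2 fold change 1.21 ± 0.35, adjusted p = 0.0712), an immune-induced molecule, and Mtkl (2.05 ± 0.56, adjusted p = 0.0571), a relative of the antifungal peptide Metchnikowin. Metchnikowin itself (Mtk) had 0.41, and Drosomycin (Drs), the classic antifungal readout of Toll, -0.77. The median over the 9 was 0.41. Of 20 Toll pathway genes, which include the ligand, receptor, proteases and NF-kB factors, 0 were called by edgeR, 1 was higher and 1 lower at an unadjusted p under 0.05, and 1 was called higher by DESeq2. The median over these 20 genes was 0.30, with 11 positive values. The highest of the 20 was dl, which encodes Dorsal, at 1.83 ± 0.49 with an adjusted p of 0.0502 (edgeR). Of 10 antimicrobial peptide genes driven mainly by the Imd pathway, 0 were called by either tool, 2 were lower at an unadjusted p under 0.05, and the median was -0.42. Over all 8159 tested genes, 804 were lower at that unadjusted threshold (edgeR).

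Markers of the tissues of the head were read beside these values. Among all 8159 tested genes, 362 were higher and 804 lower at an unadjusted p under 0.05 (edgeR). Of 16 tested genes for fat body and haemolymph carrier proteins, such as the yolk protein Yp1, 0 were called by either tool, 1 was lower at an unadjusted p under 0.05, and the median was -0.30. Their summed level in synaptosome libraries 1, 2, 3 and old was 3479, 2512, 2430 and 18770 CPM. In the input libraries it was 6481, 6638, 7394 and 21890 CPM. The old library was thus the highest of both groups, as it was for BomS5, BomS2 and BomS1. For BomS6, BomS3, BomBc1 and BomBc2 it was not the highest of both groups. Of 11 blood cell genes, 0 were called by either tool, and 1 was higher and 1 lower at an unadjusted p under 0.05 (edgeR). Their median was 0.50, with 7 positive values. The summed level was 211.7 to 2252 CPM in synaptosomes and 303.2 to 620.6 CPM in input. The highest sum, in synaptosome library old, held 1533 CPM of PPO1. Of 7 tested cuticle genes, 3 were called higher by edgeR and 5 by DESeq2, and the median was 2.26. Their summed levels were 4305 to 23220 CPM in synaptosomes and 3306 to 3844 CPM in input. Cpr72Ec alone gave 3378 to 22600 CPM in synaptosomes and 2698 to 3521 CPM in input. Its log2 fold change of 2.26 was the median of the list. Of 13 neuronal genes, whose median was -1.02, 0 were called by either tool and 0 reached an unadjusted p under 0.05, and the summed level of 107.2 to 467.1 CPM in synaptosomes overlapped the 207.6 to 731.5 CPM of input. Photoreceptor genes had the lowest median of the marker lists, -2.54. With edgeR 8 of 12 were called lower, against 4.13% of all tested genes, and DESeq2 also called 8 lower. The share of all genes that DESeq2 called lower was not computed. Summed levels of the photoreceptor genes were 21610 to 108200 CPM in synaptosomes and 55510 to 73760 CPM in input. Arr2 alone gave 15680 to 85360 CPM in synaptosomes and 23680 to 38360 CPM in input, with a log2 fold change of 0.28. Of 10 head muscle genes, 2 were called lower by both tools, with a median of -1.05. Of 10 glial genes, 0 were called by either tool, 1 was higher at an unadjusted p under 0.05, and the median was -0.11. The part of these tissues in the Bomanin values was not tested.

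Transcript length also moved with the difference. BomS6 and BomS5 have the shortest transcripts of the 8 genes, at 198 and 218 bases. Among the 38 other tested genes whose longest annotated transcript had at most 300 bases, the median log2 fold change was 1.58, with quartiles of 0.90 and 2.22, and 7 genes (18.4%) were called higher. BomS5 and BomS6, at 2.16 and 1.44, lay between these quartiles. The median was 0.19 for 355 genes above that and up to 600 bases, -0.28 for 952 genes up to 1000 bases, -0.33 for 2642 genes up to 2000 bases and -0.43 for 4099 longer genes. BomS1 (361 bases) and BomS2 (367 bases) lay between the quartiles of their class, -0.68 and 1.17, while BomBc1 (468 bases) lay above the upper one. BomS3, whose longest transcript has 769 bases and whose other transcript has 301, lay above the upper quartile of the longer class, 0.52, and below that of the shorter. By protein length the order was the same: the median was 0.62 for 296 genes encoding at most 100 residues, of which 5.07% were called higher, -0.30 for 996 genes of up to 200 residues and -0.39 for 6729 genes of more than 200. The part of length in the Bomanin values was not tested.

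**Figure D5:**
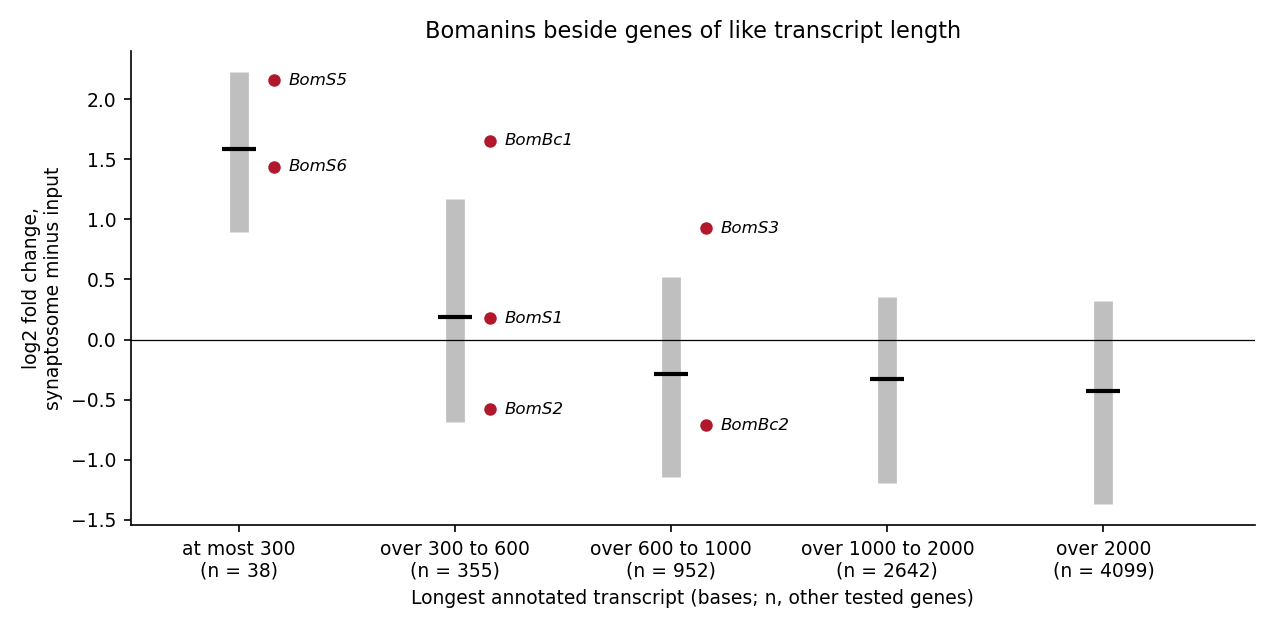
Log2 fold change, synaptosome minus input, by the longest annotated transcript of a gene: grey bars span the quartiles and black marks the median of the other tested genes in each class, and red points are the 7 tested Bomanins. BomS5 and BomS6 lie inside the bar of the 38 other genes of at most 300 bases, while BomBc1 and BomS3 lie above the bars of their classes.

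The genes whose log2 CPM followed the summed level of the 8 Bomanins most closely over the 8 libraries, among 5556 genes with a mean of at least 100 counts, were CG10359 (r = 0.98), sktl (0.98), CG12811 (0.96), CG44014 (0.96) and nAChRbeta3 (0.96). With group means removed they were Mtpbeta (0.99), CG15629 (0.97), Hex-C (0.97), CG44014 (0.96) and Gba1b (0.96). CG44014 was thus in both lists.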

How the data were processed

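The authors sequenced 3′ ends of mRNA (QuantSeq REV), aligned reads to dm6 (STAR 2.6.1b is named in the submitters' processing notes) and deposited raw counts per gene and per 3′ end cluster. All 10669 gene counts equal the sum of their ends. A deposited list (BED) of known 3′ ends, separate from the counts per end cluster, gave the end positions used here. The authors' own test results were not used. Group membership came from column names, and 82 gene IDs had no symbol.

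Genes and ends were filtered with filterByExpr, scaled by TMM and tested with edgeR 4.0.16 (R 4.3.3), robust quasi-likelihood F test, synaptosome against input, 4 against 4 libraries, Benjamini-Hochberg over all tested genes or ends. The SE of a log2 fold change was derived from its size and the F statistic (size over root F). DESeq2 1.42.0, other scalings, filters and left-out libraries were alternatives. The procedure was tested on simulated data. Within-library ratios used a pseudocount of 0.5 and exact two-sided permutation tests.

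The 8 genes and all gene lists were chosen with earlier results of these data known. Named were all 8 genes, all other Bomanins and peptides listed as Toll-induced in the table where values carried a comparison, and the 5 most similar genes by either measure. Transcript and protein lengths came from the Ensembl BDGP6 annotation, with protein length taken from its coding exons; the transcript length classes were chosen after seeing the data. Reads shared between near-identical Bomanins were not checked. The deviations of libraries 1, 2 and 3 did not correlate by name (0.00255, 0.0394 and -0.0179), while those of the old libraries did (0.25), so the names were not used as pairs and old was read as a batch in alternatives.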

Additional observations from a re-analysis of the deposited data

Results flagged for a closer look

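BomBc3 had 2.57 CPM in synaptosome library 1 and 0 in the other 3 synaptosome libraries, a single library far from the rest of its group. The value rested on 11 counts, and with 3 libraries at 0 any count in the fourth gives this gap. In synaptosome library 2, 3 counts would be 2.63 CPM, so a level of 2.57 CPM cannot be told from 0 there. In synaptosome libraries 3 and old, 3 counts would be 2.12 and 0.352 CPM, below that level. Of 18 groups examined for such a gap this was 1, and chance gives about 1 in 20.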

How the results depend on the processing

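The number of Bomanins called higher was 1 and became 3 with DESeq2, 2 with median-of-ratios size factors, 2 with library totals alone, 0 to 1 when single libraries were left out, and 0 without the 2 shallowest synaptosome libraries, an alternative added after seeing the data, in which BomS5 had a log2 fold change of 2.53 and an adjusted p of 0.0679 (edgeR); none was called lower in any of these. The median log2 fold change of 0.93 became 0.44 without both old libraries, and 0.30 to 0.99 when single libraries were left out; BomBc3 passed the filter and entered the median in the former and in 5 of the latter 8, and over the same 7 genes the values were 0.89 and 0.61 to 1.13. The ends called higher, 1, became 2 with median-of-ratios size factors, 2 with the replicate block, 0 without the 2 shallowest synaptosome libraries and 0 to 1 when single libraries were left out. The ratios passing an adjusted p of 0.05 numbered 0 to 4 when single libraries were left out, and the log2 ratio of the family's shares, 1.02, lay between 0.88 and 1.13. BomS1 changed sign without both old libraries (-0.016) and without synaptosome old (-0.25). The BomBc1 to BomS6 ratio lay between -0.15 (without synaptosome 3) and 0.759 when single libraries were left out. With the replicate block, BomS5 had 2.13 (adjusted p = 0.0125, edgeR) and 1 gene was called higher. With a batch term for old, 1 gene was called higher as well; numbered libraries did not pair by name, the old ones did. The median of all genes was -0.26 with median-of-ratios size factors, -0.41 with library totals and -0.41 with DESeq2. The causes were not tested. The shallowest library had 1029666 counts, where 3 counts equal 2.63 CPM.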
